A study of Zea mays with 6 samples.

Results

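The anthocyanin regulators described here are 5 maize genes, c1 and pl1 of the MYB family, r1 and b1 of the bHLH family and pac1 of the WD40 family. They were chosen by their known role in pigment regulation, with earlier mutant and wild-type values of these libraries in view, and were found by identifier. All 5 are among the 31470 genes listed for each library. Because that contrast was known when the list was drawn up, the members' differences between genotypes are given as descriptions, and the calls of the fit over all genes are printed only to place them against other genes.

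The 6 RNA sequencing libraries were made from mature anthers of the Zea mays line B104. The mutant group has 3 libraries and carries homozygous loss of both ZmCOI2a and ZmCOI2b, written ZmCOI2a-/-,ZmCOI2b-/- in the labels, and the wild-type group has 3 libraries of the same line, tissue and stage. COI genes encode F-box proteins that sense the plant hormone jasmonate, and the series asks how these genes act in anther opening and in the fertility of the male gametophyte. The labels do not say how the alleles were made, whether the mutants are 1 line or several, or whether libraries came from separate plants, so the spread between libraries may be partly technical.

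Anthocyanins are the purple and red flavonoid pigments of maize. Their biosynthetic genes are switched on by a complex of a MYB protein, a bHLH protein and a WD40 protein. The MYB genes c1 and pl1 encode closely related activators, c1 known for the kernel aleurone and pl1 for the plant body. The bHLH genes r1 and b1 encode their partners, and r1 alleles are classically known to decide whether seedlings and anthers are coloured. The WD40 gene pac1 is needed for full pigment in the aleurone. In Arabidopsis, JAZ repressors, which jasmonate removes through COI1, bind members of the same kind of complex.

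The library totals behind the deposited FPKM were even, from 16845656 to 17759978 reads, and were inferred from the FPKM values. FPKM counts fragments relative to gene length and to this total, called depth here. Whole reads recovered for listed genes made up about 99.6% of each total, so the totals need not equal the reads sequenced. Some libraries stood apart. On the leading principal component, with 52.8% of the variance, mutant replicate 3 lay at -21.9 and so closer to the wild-type side than its fellow mutant libraries, at -42.9 and -46.3. Likewise, wild-type replicate 1 lay at 24.3 and so closer to the mutant side than wild-type replicates 2 and 3, at 41.0 and 45.8. On the next component, with 25.8%, wild-type replicates 2 and 3 lay far apart, at -37.1 and 47.3. The files do not pair identifiers with names, so neither the targeted genes nor anther marker genes were analysed here, and the genotype and tissue labels were not checked on them.

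Positions are on B73 RefGen_v4. The MYB gene c1 is Zm00001d044975, on chromosome 9 from 8983448 to 8984721, plus strand. Its partner in the MYB family, pl1, is Zm00001d037118, on chromosome 6 from 112978409 to 112979673, plus strand. For the bHLH genes, r1 is Zm00001d026147, on chromosome 10 from 139780968 to 139790276, plus strand, and b1 is Zm00001d000236, on the unplaced contig B73V4_ctg44 from 29069 to 33275, plus strand. The WD40 gene pac1 is Zm00001d017617, on chromosome 5 from 201803815 to 201807716, minus strand. The names come with the list of members and not from the files. In RefSeq's gene table for the newer assembly Zm-B73-REFERENCE-NAM-5.0, the names c1, pl1, r1 and pac1 stand on the same chromosomes as these identifiers, b1 is not among the names matched, and pac1 is a name of 2 genes, so which of these Zm00001d017617 matches was not determined.

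The bHLH gene r1 was by far the highest of the regulators, pac1 followed, and both were read in all 6 libraries. The MYB gene pl1 was read in all 3 mutant libraries and nearly unread in wild type. Its relative c1 had a handful of reads in both genotypes, and b1 had 1 read in all. FPKM is per length, so these levels can be set side by side. In the mutant, the order by mean FPKM was r1, pac1, pl1, c1 and b1, and the 3 libraries overlapped only between c1 and b1. In wild type the order was r1, pac1, c1, pl1 and b1, with overlap between c1 and pl1 and between pl1 and b1. In bulk anthers, fewer cells of a type and less RNA per cell cannot be told apart.

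**Figure D1:**
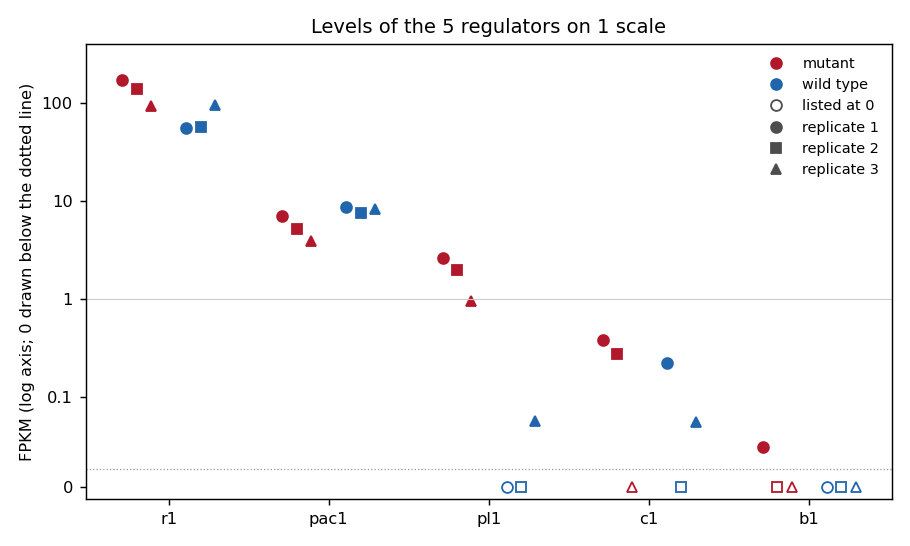
FPKM of the 5 regulators in each library on a logarithmic axis, mutant in red left of wild type in blue, marker shape for the replicate, and open markers below the dotted line for libraries listed at 0. The r1 values sit between 54.99 and 172.8 FPKM, the pac1 values between 3.874 and 8.583, while pl1 reaches 2.592 FPKM in the mutant and at most 0.05621 in wild type.

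pl1 is the regulator with the largest ratio between genotypes, at a low level. It had 2.592, 1.976 and 0.9487 FPKM in mutant replicates 1, 2 and 3, against 0, 0 and 0.05621 FPKM in wild-type replicates 1, 2 and 3. These are 46, 35 and 17 reads in the mutant, against 0, 0 and 1 read in wild type. All mutant libraries exceeded all wild-type libraries, and even the lowest mutant library held 17 reads where the whole wild-type group held 1. A count of 0 in wild-type replicates 1 and 2 allows a level of up to 0.172 and 0.176 FPKM, the level of 3 reads.

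Over the groups, 98 mutant reads and 1 wild-type read give a depth-corrected ratio of 95.9, with an exact 95% counting interval of 16.8 to 3825. The interval covers counting error only. The single wild-type read came from replicate 3, and without that library no ratio can be given. A full separation of this kind, with all mutant libraries higher, was seen in 5.76% of all listed genes. With at most 1 read in each wild-type library and at least 10 in each mutant library, a rule set after the values were seen, pl1 was 1 of 9 genes, or 0.0286% of those listed, and had the third highest mutant read sum of the 9. In the mutant libraries pl1 lay above 56.4%, 54.0% and 41.5% of listed genes, which is a mid to low level.

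Genotypes were compared over all genes with limma on log2(FPKM + 1), a scale that understates low genes, for genes with at least 1 FPKM in at least 3 libraries. pl1 reached 1 FPKM in 2 libraries only, so it had no place in that fit. Its difference on this scale was 1.43. A lower filter of 0.1 FPKM in 3 libraries was met by pl1 through its mutant libraries alone. A gene admitted this way has to differ, so its call adds no support. With that filter pl1 was called higher in the mutant (SE 0.22, limma adjusted p = 0.0227), as were 1.28% of the genes tested. With no filter pl1 was also called higher (limma adjusted p = 0.0471), as were 0.397% of genes. Since pl1 was listed with the contrast known, that call adds no support either. The call with the lower filter was lost without mutant replicate 1 (limma adjusted p = 0.0744), mutant replicate 2 (0.110), wild-type replicate 1 (0.0588) or wild-type replicate 2 (0.0546), while the difference stayed between 1.24 and 1.68 whichever library was left out. Leaving out mutant replicate 1 or 2 also took the calls over all genes with this filter to 12 and 3, against 1015 with every library.

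**Figure D2:**
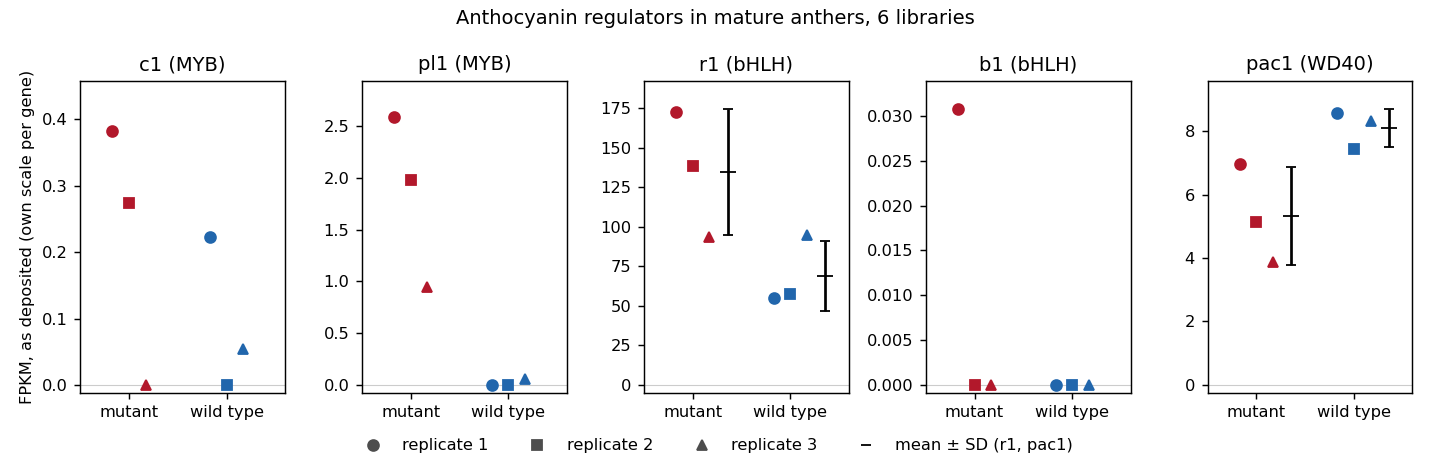
FPKM as deposited for each regulator, with its own vertical scale, mutant left of wild type, 1 point per library, and the mean with SD (n = 3 each) for r1 and pac1, which were read in every library. pl1 separates the genotypes upward, pac1 downward with a narrow gap between 6.954 FPKM in mutant anthers and 7.443 FPKM in wild-type anthers, and r1 overlaps because of wild-type replicate 3 at 94.48 FPKM.

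c1, the other MYB gene, was close to the limit of detection in both genotypes. It had 0.3823, 0.2736 and 0 FPKM in mutant replicates 1, 2 and 3, against 0.2224, 0 and 0.05448 FPKM in wild-type replicates 1, 2 and 3. In reads these are 7, 5 and 0 in the mutant, against 4, 0 and 1 in wild type, so the genotypes overlapped and each had a library at 0. The 12 mutant and 5 wild-type reads give a ratio of 2.35 with a counting interval of 0.770 to 8.51, and no difference was detectable at this depth. Without wild-type replicate 1, which held 4 of the 5 wild-type reads, the ratio was 7.82.

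Summed, the MYB pair reached 2.97, 2.25 and 0.949 FPKM in mutant replicates 1, 2 and 3, against 0.222, 0 and 0.111 FPKM in wild-type replicates 1, 2 and 3. In the mutant this sum was mostly pl1, which was 6.78 and 7.22 times the level of c1 in replicates 1 and 2 and the only MYB gene read in replicate 3. In wild type neither MYB gene exceeded 4 reads in a library. c1 and pl1 are close relatives, so reads from stretches they share may have been dropped or assigned to either, and the counting rule is not given in the sources used here.

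The bHLH gene r1 was an abundant transcript of these anthers. It had 172.8, 138.4 and 93.32 FPKM in mutant replicates 1, 2 and 3, against 54.99, 57.20 and 94.48 FPKM in wild-type replicates 1, 2 and 3. Wild-type replicate 3 lay just above mutant replicate 3, so the genotypes overlapped, while mutant replicates 1 and 2 exceeded every wild-type library. r1 ranked 571, 702 and 972 among listed genes in the mutant libraries, and 1724, 1620 and 1103 in the wild-type libraries.

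The mean of r1 was 135 ± 40 FPKM in mutant anthers and 68.9 ± 22.2 FPKM in wild-type anthers (SD, n = 3 each), a ratio of means of 1.96. With 8423, 6734 and 4594 reads in mutant anthers and 2634, 2671 and 4618 reads in wild-type anthers, or a common multiple of these, counting error was small. The spread between libraries set the precision. The log2 fold change was 0.96 (SE 0.29, 95% interval 0.29 to 1.63), which was not called (limma adjusted p = 0.0796). Of 18984 tested genes, 6.65% were called, 1.90% higher and 4.75% lower in the mutant, and 2.51% had a larger positive fold change than r1. Neither of the members tested, r1 and pac1, was called.

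The scaling of the libraries mattered for r1. The median log2 fold change of all tested genes was -0.20 as deposited, and relative to it r1 stood 1.16 higher. With median-of-ratios scaling, which brings the median to 0.03, r1 was higher in each mutant library than in any wild-type library, as for 12.4% of listed genes, and r1 was called higher (log2 fold change 1.23, limma adjusted p = 0.0420), as were 3.48% of tested genes. With upper-quartile scaling the libraries did not overlap either, as for 10.5% of listed genes, and r1 was again called (log2 fold change 1.17, limma adjusted p = 0.0431), as were 3.08%. Limma-voom with median-of-ratios scaling, run on recovered reads, also called it (log2 fold change 1.25, adjusted p = 0.0352), as it did 3.58% of genes. Without that scaling, limma-voom did not call r1 (log2 fold change 0.97, adjusted p = 0.0668). Over all tested genes, 361 were called higher and 901 lower as deposited, 661 and 410 with median-of-ratios scaling, and 585 and 500 with upper-quartile scaling.

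Single libraries also moved the call of r1. Without wild-type replicate 3, the library highest for r1 in its group, the log2 fold change was 1.21 and r1 was called (limma adjusted p = 0.0353), as were 3.34% of tested genes upward. Leaving out any other library gave log2 fold changes between 0.76 and 1.20, none of them called. Calls over all genes fell in these fits, from 1262 with every library. They were 54, 50 and 840 without mutant replicates 1, 2 and 3, and 409 and 490 without wild-type replicates 1 and 2. r1 was not called with every library either (limma adjusted p = 0.0796), and whether its missing calls go with these counts was not tested. Wild-type replicate 3 is also the library at one end of the second principal component, and the part of that in the r1 values was not tested.

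b1, the other bHLH gene, was listed at 0.03085 FPKM in mutant replicate 1 and at 0 in the other two mutant libraries, against 0 in all 3 wild-type libraries. The value stands for 1 read at the smallest counted length that fits. A count of 0 allows up to 0.0966 FPKM of b1, the level of 3 reads in the shallowest library, so b1 was not detectable at this depth in 5 of 6 libraries and no fold change is given. Of the reads of this bHLH pair, all but 1 were thus assigned to r1. The bHLH genes are related to each other, and line B104 may differ at r1 and b1 from the B73 reference used for counting, which was not tested.

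**Figure D3:**
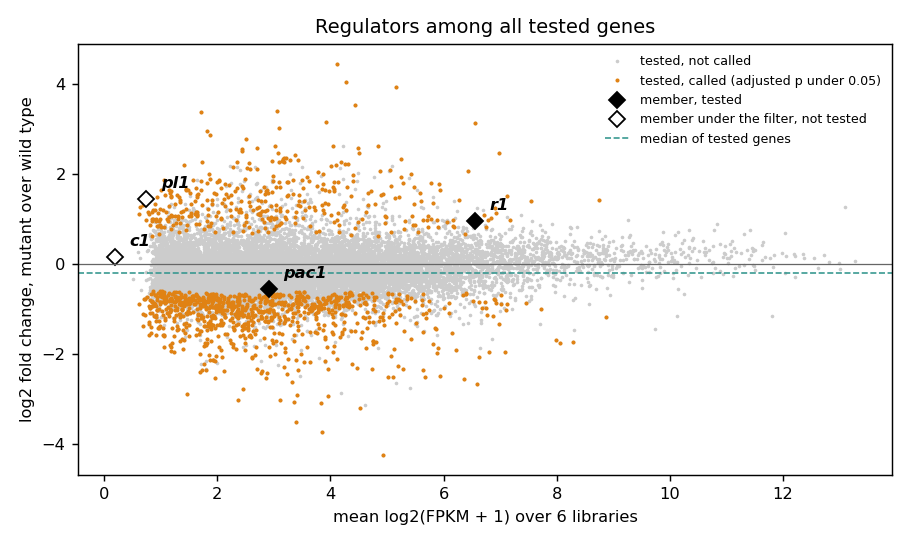
Log2 fold change of mutant over wild type against mean log2(FPKM + 1) for all tested genes in grey, called genes in orange and the regulators other than b1 as diamonds, filled where tested and open where under the filter. r1 sits at 0.96 among abundant genes, pac1 at -0.55 among uncalled genes, and pl1 at 1.43 left of nearly all tested genes.

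pac1, the WD40 gene, was moderately expressed and the only regulator that was lower in every mutant library. It had 6.954, 5.139 and 3.874 FPKM in mutant replicates 1, 2 and 3, against 8.583, 7.443 and 8.325 FPKM in wild-type replicates 1, 2 and 3. In reads these are 80, 59 and 45 in mutant anthers and 97, 82 and 96 in wild-type anthers, or a common multiple of these. The mean was 5.32 ± 1.55 FPKM in mutant anthers and 8.12 ± 0.60 FPKM in wild-type anthers (SD, n = 3 each), with the highest mutant library only slightly below the lowest wild-type library.

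This pattern was common among all genes, since 23.0% of listed genes had every mutant library below every wild-type library. The log2 fold change of pac1 was -0.55 (SE 0.21, 95% interval -1.03 to -0.08), which was not called (limma adjusted p = 0.128), and 16.9% of tested genes had a lower one. Relative to the median of the tested genes pac1 stood at -0.36. With median-of-ratios scaling its log2 fold change was -0.31 (limma adjusted p = 0.392), and with upper-quartile scaling -0.37 (limma adjusted p = 0.311). Under both of these scalings the genotypes overlapped.

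**Figure D4:**
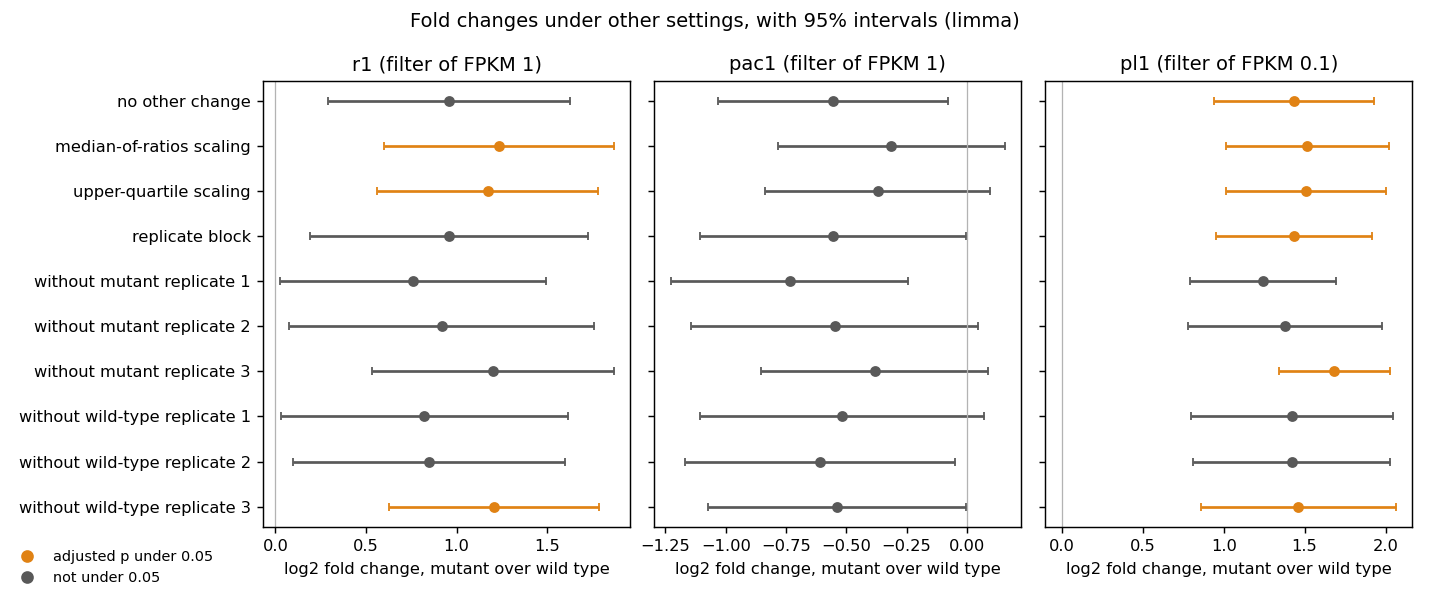
Log2 fold change of mutant over wild type with its 95% interval from limma for r1, pac1 and pl1 under other scalings, with the replicate number as a block, and with each library left out, in orange where the adjusted p was under 0.05. r1 was called under both scalings and without wild-type replicate 3, and pac1 in none of these settings. pl1 met its filter of 0.1 FPKM through its mutant libraries alone, so its orange points add no support.

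The balance among the regulators can be read within a library, where the scaling between libraries cancels. The ratio of r1 to pac1 FPKM was 24.8, 26.9 and 24.1 in mutant replicates 1, 2 and 3, against 6.41, 7.69 and 11.3 in wild-type replicates 1, 2 and 3. The mutant libraries lay close together and all above wild type, including mutant replicate 3, whose r1 level overlapped with wild type. The mean ratio was 25.3 ± 1.5 in mutant anthers and 8.48 ± 2.57 in wild-type anthers (SD, n = 3 each), which is 2.98 times as high in the mutant, and 2.66 to 3.59 times with any 1 library left out. This ratio was formed after the values had been seen, from a gene that tended higher and a gene that tended lower, so its separation is a description and has no test.

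Likewise, pl1 stood at 1.50%, 1.43% and 1.02% of the r1 level in mutant replicates 1, 2 and 3, against 0%, 0% and 0.0595% in wild-type replicates 1, 2 and 3. Although r1 was about as high in wild-type replicate 3 as in mutant replicate 3, pl1 had 1 read in that wild-type library and 17 in that mutant library. In all libraries the MYB genes were far below the bHLH gene r1.

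**Figure D5:**
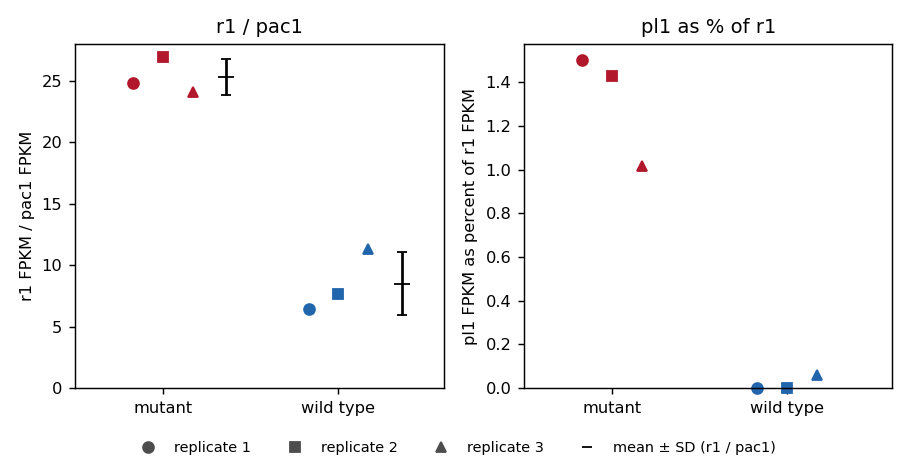
Ratio of r1 to pac1 FPKM (left, with mean and SD, n = 3 each) and pl1 as a percentage of r1 FPKM (right) in each library, mutant left of wild type. The r1 to pac1 ratio is at least 24.1 in the mutant libraries and at most 11.3 in the wild-type libraries, and pl1 is at least 1.02% of r1 in the mutant and at most 0.0595% in wild type.

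Within the mutant group 4 of 5 regulators shared an order of libraries. Mutant replicate 1 was highest and mutant replicate 3 lowest for pl1, r1, pac1 and c1. For c1 this order rests on 7, 5 and 0 reads, and b1, with 1 read in all, cannot show an order. The same order of the 3 libraries was seen in 16.2% of listed and 20.5% of tested genes. Mutant replicate 3, the library nearest to wild type on the leading component, was thus nearest to wild type for r1 and pl1 but farthest from it for pac1.

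Genes with the pattern most like r1 and pac1 were sought over the 6 libraries by Pearson's r of log2(FPKM + 1), among all tested genes. Closest to r1 was Zm00001d027899 (chromosome 1, 17141137 to 17141631), with r = 0.995, at 129.3, 103.1 and 38.68 FPKM in mutant anthers and 15.20, 14.27 and 40.10 FPKM in wild-type anthers. It shared with r1 the high wild-type replicate 3 and the low mutant replicate 3. An r of at least 0.95 with r1 was reached by 162 genes, 0.853% of those tested. Closest to pac1 was Zm00001d035595 (chromosome 6, 35975616 to 35978715), with r = 0.997, at 61.55, 55.78 and 50.40 FPKM in mutant anthers and 65.52, 63.39 and 64.49 FPKM in wild-type anthers. For pac1, 81 genes reached 0.95, or 0.427%. These are the best of 18984 genes over 6 points that share libraries and fall in 2 genotypes, so high values are to be found for many genes.

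No listed gene overlapped a regulator on either strand, so reads of an overlapping listed gene do not enter these values. The nearest listed genes of r1 and pl1 were either hardly read or had a mean no higher in the mutant. Below r1, the gene at 139666878 to 139673623 on chromosome 10 averaged 21.0 ± 2.0 FPKM in mutant anthers and 22.9 ± 1.4 FPKM in wild-type anthers (SD, n = 3 each), and the gene above it, at 139804169 to 139809793, had at most 12 reads in a library. Beside pl1, the gene at 112983456 to 112988589 on chromosome 6, with a gap of 3782 bp, had 1 read in mutant replicate 2 and 0 in every other library. On the other side, the gene at 112916637 to 112925689 averaged 0.812 ± 0.081 FPKM in mutant anthers and 1.20 ± 0.43 FPKM in wild-type anthers (SD, n = 3 each).

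The gene nearest to pac1, at 201801849 to 201802910 on chromosome 5 on the same strand and 904 bp away, was also lower in the mutant, at 3.908, 3.379 and 5.302 FPKM in mutant anthers and 6.430, 10.29 and 7.530 FPKM in wild-type anthers. Its log2 fold change was -0.80 and was not called (limma adjusted p = 0.0635). Every mutant library lay below every wild-type library, as for 23.0% of listed genes. Around c1, both neighbours on chromosome 9 separated the genotypes at few reads and in opposite directions. The gene at 8669291 to 8673595 had 7, 8 and 9 reads in mutant anthers and 1, 1 and 1 in wild-type anthers, and the gene at 9002299 to 9005803 had 0, 0 and 0 reads in mutant anthers and 7, 9 and 4 in wild-type anthers. The only other listed gene on the contig of b1, at 71975 to 73515, had 5.239, 8.428 and 10.96 FPKM in mutant anthers and 2.554, 21.46 and 6.293 FPKM in wild-type anthers, while b1 had 1 read in all.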

How the data were processed

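Per the labels, total RNA of anthers was made into libraries with a kit for Illumina sequencing. The authors deposited 1 FPKM value per gene and library. The tools listed in the submitters' processing notes, with no roles, are Bowtie2 2.2.3, HTSeq 0.6.0 and HISAT2 2.1.0, and the build is B73 RefGen_v4. How strand, low values and the annotation were handled is not given in the sources used here.

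Reads were recovered as FPKM times a whole-number counted length times a library total, where this was whole for each of the 6 libraries, with a tolerance of 0.0001 reads and 3e-09 of the reads, for 31465 of 31470 genes. Totals came from genes counted over their whole span. The counted lengths are 1041 bp for c1, 1009 for pl1, 2772 for r1, 1843 for b1 and 654 for pac1. For r1, b1 and pac1 the true reads and length could be a common multiple of those given, and FPKM is not affected. The length column equals end minus start and did not give the counted length.

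The planned test for FPKM was used: limma 3.58.1 in R 4.3.3 with an intensity trend on log2(FPKM + 1), over all 6 libraries, for 18984 genes with at least 1 FPKM in 3 libraries, two-sided, with Benjamini-Hochberg adjustment over all of them and calls at 0.05. Ratios of reads carry exact conditional binomial 95% intervals, for counting error only. Python 3.11.15 with SciPy 1.17.1 was used elsewhere. Replicate numbers come from the labels. Same-numbered libraries did not deviate together, so the numbers were not taken to pair them.

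The members, lists and settings were chosen with earlier results of these data known. All members are named, with the tested gene most like r1 and pac1 and the nearest listed genes. Other pathway and cell type genes were to be matched by symbol, but 0 of the Zm00001d identifiers are in the RefSeq table, so those lists were not analysed here. Alternatives were other scalings, pseudocounts and filters, limma-voom, a replicate block and leaving out each library.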

Additional observations from a re-analysis of the deposited data

Results flagged for a closer look

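The reads of pl1 lie outside the comparison over all genes, because pl1 was under its filter on low values, and they were above the level of every wild-type library. pl1 had 46, 35 and 17 reads in mutant replicates 1, 2 and 3, against 0, 0 and 1 read in wild-type replicates 1, 2 and 3.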

How the results depend on the processing

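Against 1262 genes called, no filter gave 292, the replicate block 715, and leaving out 1 library 50 to 1373. Same-numbered libraries had correlations of deviations of 0.012, -0.38 and -0.33, and the replicate block changed no call of r1 (limma adjusted p = 0.151) or pac1 (0.228). For r1, at a log2 fold change of 0.96 as reported, median-of-ratios scaling gave 1.23, upper-quartile scaling 1.17 and limma-voom with median-of-ratios scaling 1.25, each now called, and leaving out 1 library gave 0.76 to 1.21. Limma-voom without that scaling gave 0.97 and did not call r1 (adjusted p = 0.0668). r1 was also not called with the other pseudocounts or the other filters. pac1 was called in no setting. Its difference of -2.79 FPKM was -1.52 with median-of-ratios scaling. For pl1, untested as reported, the difference of 1.43 became 2.11 with a pseudocount of 0.5 and 3.96 with 0.1, since the pseudocount sets the value of a gene near 0 in 1 group. It was called at 1.43 with no filter, with the filter of 0.1 FPKM and with that filter and the replicate block. With that filter it was also called at 1.52 with median-of-ratios scaling, 1.51 with upper-quartile scaling, 3.96 with a pseudocount of 0.1 and 5.38 with limma-voom. pl1 met that filter through its mutant libraries alone, so these calls add no support. The pl1 difference was 1.24 to 1.68 with 1 library left out. With that filter it was then called only at 1.68 without mutant replicate 3 and at 1.46 without wild-type replicate 3. Genes called higher there were 285 and 440 of 25616. These settings that combine the filter with another choice were added after seeing the data. For c1 the difference of 0.15 was 0.62 with a pseudocount of 0.1, and with the filter of 0.1 FPKM 0.62 and, with limma-voom, 0.83, none called. Its read ratio was 1.47 to 7.82 with 1 library left out. Of 178 alternative values computed, none changed sign, although the b1 difference is 0 without mutant replicate 1. Counts of genes and read ratios cannot change sign. Another filter or the replicate block leaves a limma fold change on log2(FPKM + 1) as it was. The absence of sign changes is thus partly fixed in advance. 151 values were rated unchanged, by their side of the threshold or a move under the spread between libraries. Among them are 8 counts of called genes, to which neither measure applies. No read ratio could be given for pl1 without wild-type replicate 3. c1 and b1 had too few reads at this depth to show a difference.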
